A study of Homo sapiens with 7 samples.

Results

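The genes described here encode the proteins of the mitochondrial ribosome. They were chosen by symbol alone, as all genes named MRPL or MRPS followed by a number and, where present, a letter A to C. The rule found 78 genes among the 21305 genes of the deposited table, 49 named for the large subunit (MRPL) and 29 named for the small subunit (MRPS). All 78 passed the minimum mean normalized count of 10 over the 7 libraries, so no gene of the set was lost to the filter.

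The mitochondrial ribosome translates the few messenger RNAs that the mitochondrial genome encodes, and its products are core subunits of the respiratory chain and the ATP synthase. Its ribosomal RNAs come from the mitochondrial genome, whereas all its proteins are encoded in the nucleus, made in the cytosol and imported. One group of these proteins has counterparts in bacterial ribosomes and the rest are found in mitochondria only. Symbols and position differ for a few genes, since MRPS30 and MRPS18A encode proteins of the large subunit, and MRPS36 is a subunit of the oxoglutarate dehydrogenase complex of the citric acid cycle.

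RNA was sequenced from 501Mel, a human melanoma cell line, with hairpins under a doxycycline-inducible promoter against the long non-coding RNA GRASLND. By label there were 3 control libraries, whose hairpin was directed at bacterial lacZ, and 2 libraries for each of the hairpins sh4 and sh8. All 7 libraries came from doxycycline-treated cells, per the study's methods 3 days after induction, and each came from this 1 cell line. The labels do not tie sh4 or sh8 to a target sequence and do not say whether the replicates were separate cultures, so p-values measure the spread between these libraries. In a bulk sample, fewer cells of a kind and less RNA per cell cannot be told apart.

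GRASLND itself had normalized counts of 309, 330 and 290 in the lacZ libraries, 175 and 131 under sh4, and 227 and 163 under sh8. Every knockdown library lay below every control library. The difference over both hairpins was -0.85 on the log2 scale (SE 0.19, limma, adjusted p = 0.0402). An exact two-sided permutation test over the 35 arrangements of the libraries gave p = 0.0571, the smallest value this test can give with these group sizes. All 7 melanocytic markers were present in the table, 6 of which fell under sh4 (median log2 fold change of the 7 -1.27) and 0 under sh8 (limma, 5 at an unadjusted p under 0.05). Of all genes tested, 11.9% were called lower under sh4 and 1.54% under sh8. Without the first lacZ library 6 and 2 of the 7 fell, beside 17.2% and 5.75% of all genes. Of 10 markers of other cell types, 8 were not among the genes of the table, which all have 10 or more reads summed over the libraries, and the other 2 did not pass in any comparison. Recovered depth was 13337317 to 22855232 reads per library, of which the 78 genes took 0.275% to 0.375%.

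The first lacZ library stood apart from the other control libraries in these genes. It had the lowest of the 3 control values in 71 of the 78 genes and the highest in 3, against 44.8% and 37.9% of all 15420 genes tested. The median gene of the set was lower there by -0.32 on the log2 scale than the mean of the other 2 control libraries, with -0.37 for the large and -0.29 for the small subunit, and -0.03 over all genes tested. Counts of genes called lower in each comparison with lacZ are therefore given with and without this library for these genes and most related lists, and values of single genes include it unless stated. The library was singled out from the values of these same genes. Leaving it out raises the control mean wherever it was the lowest, so lower fold changes without it follow from the choice and are no separate evidence.

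Transcript levels of the genes spanned a wide range in the control. Per kilobase of transcript, the mean normalized count over the lacZ libraries ran from 59.3 for MRPS33 to 1777 for MRPL3. The median was 507 per kb for genes named for the large subunit and 425 per kb for those named for the small subunit. These transcripts were short, with a median length of 1242 bases against 2865 bases over all genes tested, and their GC content was close to that of all genes (medians 48.2% and 47.5%).

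Among large subunit genes, the highest levels per kb in lacZ belonged to MRPL3 (1777 ± 440, SD, n = 3), MRPL20 (1527 ± 282), MRPL37 (1380 ± 331) and MRPL32 (1137 ± 140). Each of these genes differed from the next in the order by less than the larger of both SDs. MRPL3 encodes the counterpart of a bacterial protein close to the catalytic centre, and MRPL37 encodes a protein specific to mitochondria. The lowest levels per kb were those of MRPL22 (148 ± 11.6), MRPL42 (123 ± 7.40) and MRPL54 (104 ± 35.4). MRPL42 ranks low here through the long transcript it was divided by. Its mean normalized count over the 7 libraries was 1828, above the median of 518 over the set. MRPL22 was divided by 3173 bases, against a median of 1242 bases.

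Among genes named for the small subunit, MRPS15 (1321 ± 150, SD, n = 3), MRPS22 (1252 ± 117), MRPS30 (1062 ± 54.9) and MRPS24 (1041 ± 337) had the highest levels per kb in lacZ. Of these, MRPS30 encodes a protein of the large subunit. MRPS15 and MRPS22 as well as MRPS30 and MRPS24 differed by less than their SD. MRPS23 (96.0 ± 19.0), MRPS36 (66.9 ± 7.94) and MRPS33 (59.3 ± 10.6) had the lowest. Next to the lowest was thus MRPS36, whose protein belongs to another enzyme complex. Transcript lengths were those of GENCODE release 44, and which transcript of a gene was expressed was not determined. Reads could have been split with a near-identical or overlapping gene of the table for MRPL45, MRPL20 and MRPS31, where MRPL45P2, MRPL20-AS1 and MRPS31P4 had 17.2%, 16.5% and 7.88% of the level of the gene, and these values are less certain.

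**Figure D1:**
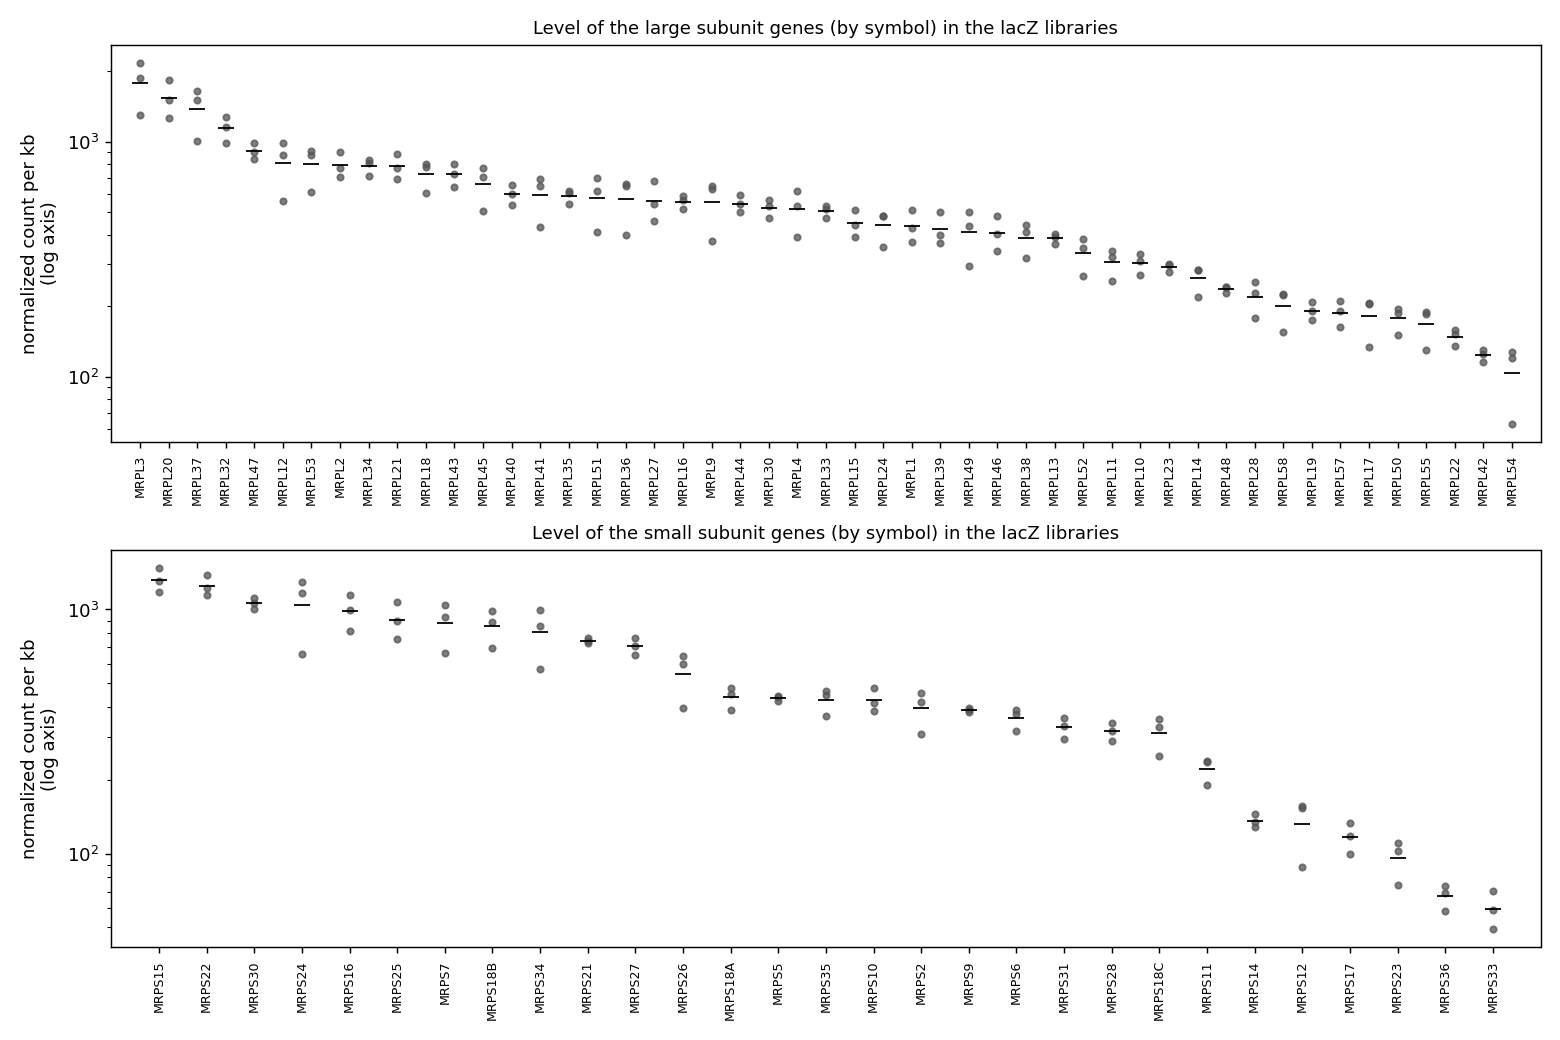
Normalized count per kilobase of transcript in the 3 lacZ libraries (points, log axis) with their mean (bar), for the 49 genes named for the large subunit (top) and the 29 named for the small subunit (bottom), each ordered by its mean. Means run from 104 (MRPL54) to 1777 (MRPL3) in the top panel and from 59.3 (MRPS33) to 1321 (MRPS15) in the bottom panel.

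Taken as a group, the mitoribosomal protein genes lay lower in the knockdown libraries than in the mean of the control. Their summed normalized count was 55241, 69875 and 64455 in the lacZ libraries, 44932 and 51871 under sh4, and 52849 and 52241 under sh8. All 4 knockdown sums lay below all 3 control sums, and the lowest control sum was that of the first lacZ library. The group means were 63190 ± 7399 in lacZ (SD, n = 3), 48402 ± 4906 under sh4 (n = 2) and 52545 ± 429 under sh8 (n = 2).

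Gene by gene, the median difference from the lacZ mean on the log2 scale was -0.21, 0.17 and 0.07 in the lacZ libraries, -0.42 and -0.18 under sh4, and -0.24 and -0.24 under sh8. The first lacZ library thus lay as low in these genes as the second sh4 library and almost as low as both sh8 libraries. Under sh4, 73 and 59 of the 78 genes lay below the lacZ mean, and under sh8 66 and 67 did, but so did 71 in the first lacZ library.

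**Figure D2:**
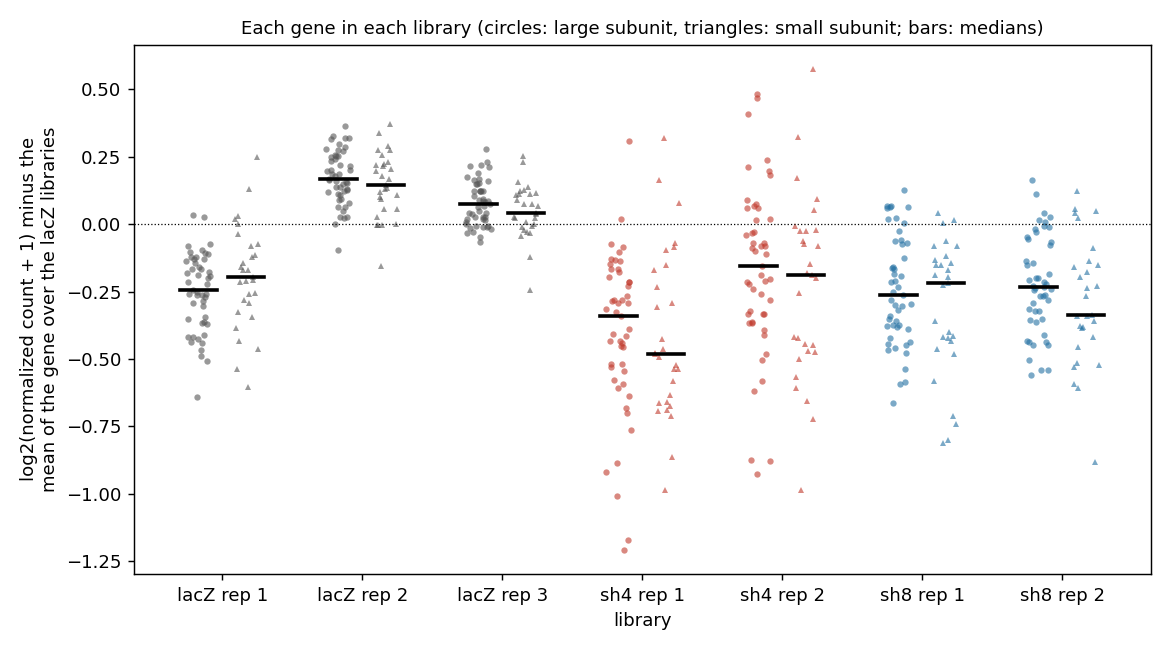
Each of the 78 genes in each of the 7 libraries (log2 of normalized count + 1, minus the mean of that gene over the lacZ libraries), with circles for genes named for the large subunit, triangles for the small subunit and bars for medians. The first lacZ library and all 4 knockdown libraries have medians below 0, from -0.18 to -0.42 over all 78 genes, and the other lacZ libraries have medians of 0.17 and 0.07.

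For both hairpins together against lacZ (n = 4 against 3, limma on log2(normalized count + 1)), 3 of the 78 genes fell at an adjusted p under 0.05 and 0 rose, beside 2.06% of all genes tested that were called lower and 2.55% called higher. At an unadjusted p under 0.05, 29 genes were lower and 0 higher, and limma-voom on the recovered reads also called 3 lower and 0 higher. The log2 fold change was negative for 72 of 78 genes against 50.6% of all genes, with a median of -0.27 against -0.01. In 20 of the 78 genes every knockdown library lay below every control library, beside 11.0% of all genes tested, and the opposite order occurred in 0. Leaving out the first lacZ library gave 8 genes called lower, 2 of which were also called with it, beside 2.20% of all genes in that fit, and a median of -0.37. The count was 0 without the second or the third lacZ library (beside 0.123% and 0.156% of all genes) and without the first or the second sh4 library (0.435% and 0.901%). It was 5 without the first sh8 library (3.36%).

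Coordinates below are those of GENCODE release 44 on GRCh38. MRPS9 (ENSG00000135972, chr2:105038069-105099960, plus strand), the counterpart of bacterial S9, had normalized counts of 559, 548 and 538 in lacZ, 277 and 348 under sh4, and 366 and 380 under sh8. The control libraries were tightly grouped here, the first one included, and no knockdown library reached them. The difference over both hairpins was -0.69 (SE 0.15, adjusted p = 0.0334), a mean 37.5% below lacZ. Without the first lacZ library MRPS9 did not pass, although its fold change under sh4 passed with and without that library.

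MRPL2 (ENSG00000112651, chr6:43054029-43059438, minus strand), the counterpart of the bacterial protein L2 at the peptidyl transferase centre, had normalized counts of 857, 1097 and 935 in lacZ, 518 and 640 under sh4, and 604 and 703 under sh8. The groups did not overlap. Its difference was -0.64 (SE 0.15, adjusted p = 0.0383), and it was -0.72 (adjusted p = 0.0437) without the first lacZ library.

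MRPS27 (ENSG00000113048, chr5:72214953-72321717, minus strand), a mitochondria-specific RNA-binding protein of the small subunit, had normalized counts of 1809, 2108 and 1966 in lacZ, 1239 and 1320 under sh4, and 1482 and 1368 under sh8. Again all knockdown libraries lay below all control libraries. The difference was -0.54 (SE 0.11, adjusted p = 0.0340), and it was -0.59 (adjusted p = 0.0417) without the first lacZ library.

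**Figure D3:**
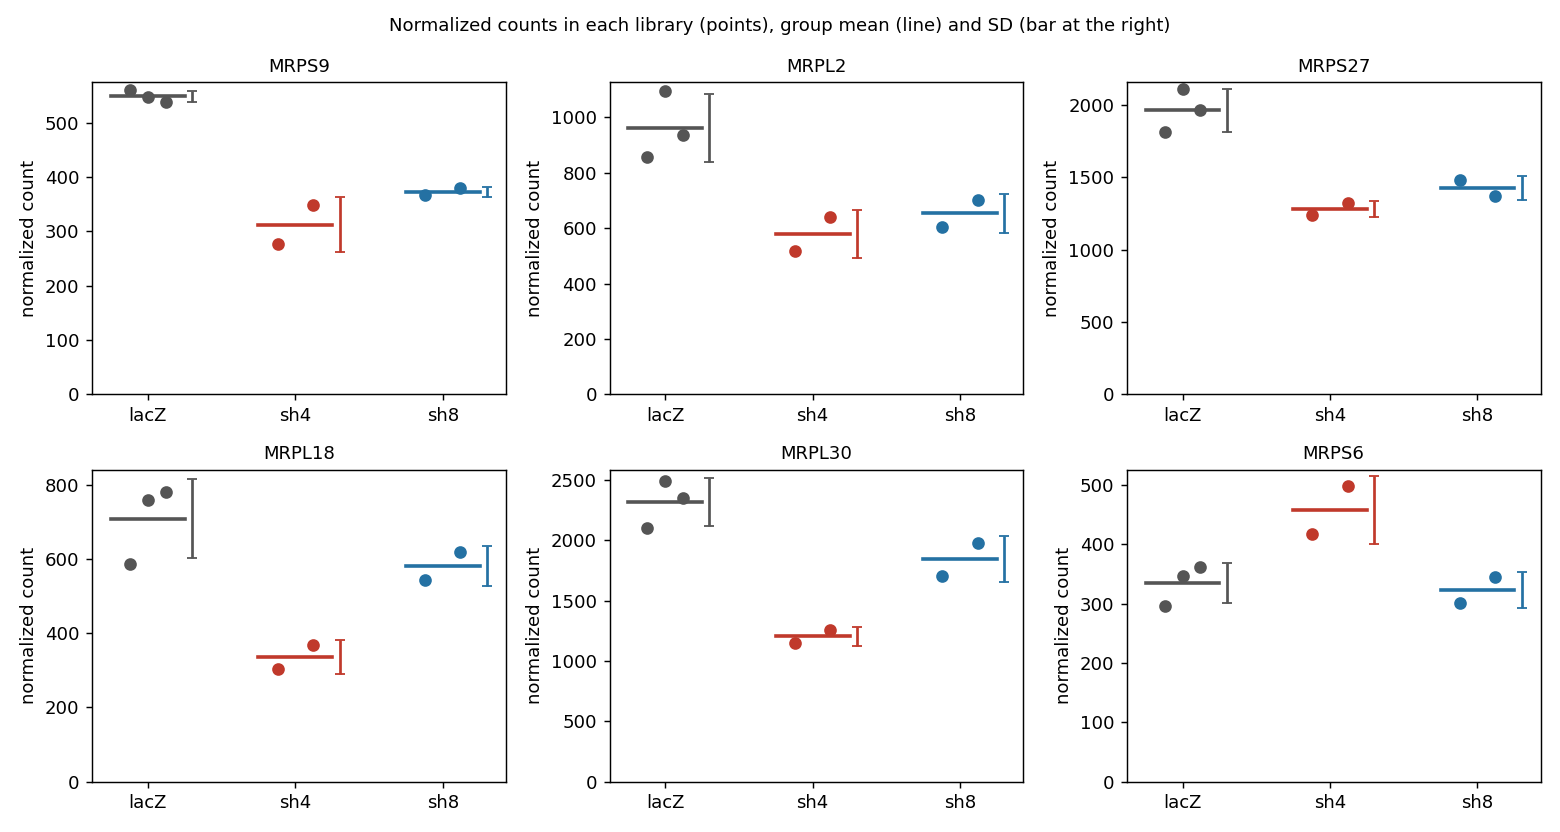
Normalized counts of 6 genes in every library (points), with the group mean (line) and the SD between the libraries of the group (bar at the right, lacZ n = 3, sh4 and sh8 n = 2 each). MRPS9, MRPL2 and MRPS27 lie lower under both hairpins, MRPL18 and MRPL30 lie lowest under sh4, and MRPS6 lies highest under sh4.

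Under sh4 alone, 17 of the 78 genes fell at an adjusted p under 0.05 (21.8%) and 0 rose, beside 11.9% of all genes called lower and 10.5% called higher. One gene was higher at an unadjusted p under 0.05, and limma-voom called 16 lower and 0 higher. With the study's further limit of an absolute log2 fold change over 1, 2 genes remained (MRPL18 and MRPL12), beside 3.37% of all genes in that direction. The median log2 fold change of the 78 genes was -0.27 and 69 were negative, against a median of -0.01 and 50.6% negative over all genes. Both sh4 libraries lay below all 3 control libraries in each of the 17 genes called, and the falls in mean ranged from 26.3% to 52.5%.

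Leaving out the first lacZ library raised the count under sh4 to 34, which held the same 17 genes, beside 17.2% of all genes called lower in that fit. The median was then -0.38. The count was 10 without the second lacZ library (beside 7.41% of all genes), 10 without the third (7.28%) and 9 without the second sh4 library (5.43%). Without the first sh4 library it was 5 of 78, near the share of all genes called lower there (5.32%).

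Among large subunit genes with a bacterial counterpart, 7 of 29 fell under sh4 (24.1%, beside 11.9% of all genes), and 15 did without the first lacZ library (beside 17.2%). The largest of these falls was in MRPL18 (ENSG00000112110, chr6:159789812-159798436, plus strand), whose bacterial counterpart binds ribosomal RNA of the central protuberance. It had normalized counts of 587, 758 and 781 in lacZ, 304 and 369 under sh4, and 543 and 619 under sh8. The sh4 libraries lay far below the rest, and one sh8 library lay within the control range. The fold change under sh4 was -1.07 (SE 0.17, adjusted p = 0.00219).

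MRPL12 (ENSG00000262814, chr17:81703367-81707517, plus strand) encodes a protein of the ribosomal stalk that also binds the mitochondrial RNA polymerase. Its normalized counts were 564, 994 and 885 in lacZ, 351 and 430 under sh4, and 572 and 537 under sh8. The sh4 libraries lay below all controls, whereas the sh8 libraries lay beside the first lacZ library and below the other 2. The sh4 fold change was -1.03 (SE 0.22, adjusted p = 0.00987). For sh8 it was -0.51 (adjusted p = 0.255). MRPL10, the protein through which MRPL12 is held on the ribosome, did not pass, with 0.02 for sh4 (adjusted p = 0.951) and -0.13 for sh8 (adjusted p = 0.702).

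MRPL30 (ENSG00000185414, chr2:99181152-99199561, plus strand), the counterpart of bacterial L30, had normalized counts of 2099, 2494 and 2351 in lacZ, 1147 and 1258 under sh4, and 1707 and 1978 under sh8. The 3 groups lay in the order lacZ, sh8, sh4 without overlap. The fold change under sh4 was -0.94 (SE 0.13, adjusted p = 0.000968). MRPL35 (-0.77), MRPL2 (-0.73), MRPL16 (-0.46) and MRPL19 (-0.44), each the counterpart of a bacterial protein of the same number, also fell. MRPL36, the counterpart of bacterial L36, was at -0.53 for sh4 (adjusted p = 0.129) and -0.52 for sh8 (adjusted p = 0.275), and it passed under both without the first lacZ library (-0.77, adjusted p = 0.00746, and -0.75, adjusted p = 0.0248). MRPL16 passed in 8 of 19 alternative settings.

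Among the 21 mitochondria-specific proteins of the large subunit, 1 fell under sh4 at this threshold, MRPS30, by 0.56 on the log2 scale (adjusted p = 0.0160). This was 4.76% of the 21, below the 11.9% of all genes called lower. The normalized counts of MRPS30 were 1663, 1746 and 1843 in lacZ, 1082 and 1309 under sh4, and 1313 and 1568 under sh8, and no knockdown library reached the lacZ range. In the fit without the first lacZ library 6 of the 21 fell, beside 17.2% of all genes, namely MRPL37 (-0.76), MRPL49 (-0.66), MRPS30 (-0.59), MRPL46 (-0.59), MRPL50 (-0.50) and MRPL38 (-0.41). MRPL45, which lies near the exit of the peptide tunnel at the inner membrane, was at -0.18 for sh4 (adjusted p = 0.540) and -0.19 for sh8 (adjusted p = 0.642). MRPL58, a peptidyl-tRNA hydrolase that rescues stalled ribosomes, was at -0.12 for sh4 (adjusted p = 0.775) and -0.52 for sh8 (adjusted p = 0.315). Whether this class and the bacterial-type proteins of the large subunit differed was not tested, and their medians under sh4 were -0.18 and -0.32, or -0.29 and -0.46 without the first lacZ library.

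In the small subunit, 5 of the 10 mitochondria-specific proteins fell under sh4, beside 11.9% of all genes, namely MRPS25, MRPS26, MRPS34, MRPS27 and MRPS23. MRPS25 had normalized counts of 4886, 4101 and 3472 in lacZ, 2577 and 2079 under sh4, and 3705 and 2860 under sh8. Here the first lacZ library was the highest of all, and the sh4 libraries lay below every control. The fold change under sh4 was -0.83 (SE 0.17, adjusted p = 0.00823), and it was -0.70 without the first lacZ library (adjusted p = 0.00753).

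MRPS26 was at -0.74 (adjusted p = 0.0322), MRPS34 at -0.72 (adjusted p = 0.0349), MRPS27 at -0.61 (adjusted p = 0.00560) and MRPS23 at -0.57 (adjusted p = 0.0498). Of these, MRPS23 lay closest to the threshold and passed in 6 of 19 alternative settings. The median of the 10 genes under sh4 was -0.43. Without the first lacZ library it was -0.53 with 5 called, beside 17.2% of all genes.

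Of the 15 small subunit proteins with a bacterial counterpart, MRPS9 (-0.82, adjusted p = 0.00412), MRPS15 (-0.58, adjusted p = 0.0151) and MRPS5 (-0.48, adjusted p = 0.0135) fell under sh4, and 7 of the 15 did without the first lacZ library. The shares of all genes called lower were 11.9% and 17.2% in these fits. MRPS28, which was put in no class, fell as well (-0.55, adjusted p = 0.0406), and passed in 9 of 19 alternative settings. The 3 human paralogues of the bacterial protein S18 did not pass under either hairpin. Under sh4 and sh8, MRPS18A was at -0.14 and -0.16, MRPS18B at -0.16 and -0.28, and MRPS18C at -0.21 and -0.39.

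The 78 genes were not lower throughout. Under sh4, MRPS6 had the highest fold change of the set, 0.45 (adjusted p = 0.0755), a gene singled out after its values were seen. Its normalized counts were 296, 347 and 362 in lacZ, 417 and 498 under sh4, and 302 and 345 under sh8. Both sh4 libraries lay above all other libraries. It did not pass here, but it was the 1 gene of the set called higher under sh4 when libraries were scaled to their totals or to their upper quartiles. MRPS36, the subunit of the oxoglutarate dehydrogenase complex, was at 0.24 for sh4 (adjusted p = 0.488) and -0.32 for sh8 (adjusted p = 0.498).

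Promoter sequences are shown for 3 of the genes that fell under sh4, as the RefSeq bases on GRCh38.p14 just upstream of the annotated start. Of the 78 genes, 69 were matched by symbol to a promoter of 300 bases, from 250 before to 50 after the start, and MRPL2, MRPL10, MRPL13, MRPL15, MRPL21, MRPL23, MRPL35, MRPS28 and MRPS36 were not. MRPS34 and MRPS26 are shown because they carry the ETS-type motif CCGGAAG, and MRPL18 because it had the largest fall. MRPL18 has no exact copy of these letters in the 250 bases before the start. It does hold ACGGAAG, which differs in the first letter and was not counted. The sequences run 5′ to 3′ on the strand of the gene, 150 bases each, and capitals mark the motif, which reads CTTCCGG where it lies on the opposite strand.
MRPS34 (chr16:1773135-1773284, minus strand): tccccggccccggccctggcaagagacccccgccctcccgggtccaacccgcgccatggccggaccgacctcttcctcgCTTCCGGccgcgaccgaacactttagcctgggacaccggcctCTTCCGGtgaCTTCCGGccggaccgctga
MRPS26 (chr20:3045902-3046051, plus strand): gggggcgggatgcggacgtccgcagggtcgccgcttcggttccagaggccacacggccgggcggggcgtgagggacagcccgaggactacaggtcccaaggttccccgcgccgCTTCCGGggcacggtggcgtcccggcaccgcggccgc
MRPL18 (chr6:159789662-159789811, plus strand): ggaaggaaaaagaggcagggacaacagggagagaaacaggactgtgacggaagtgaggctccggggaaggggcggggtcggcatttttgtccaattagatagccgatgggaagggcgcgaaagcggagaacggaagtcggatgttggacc

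In MRPS34 the matches began 71, 29 and 19 bases before the start, and in MRPS26 37 bases before it. CCGGAAG, the core bound by ETS factors such as GABPA, was present on either strand in 29 of the 69 promoters (42.0%), against 20.2% of the 10448 promoters of genes tested. AAGATGG, a core of the YY1 motif, was present in 23 of 69 (33.3%) against 7.79%. At least one of these was found in 43 of the 69 promoters, and in 26.1% of promoters of genes tested. The E-box CACGTG occurred in 8.70% of the 69 against 10.1%, GGGCGG in 60.9% against 70.0%, and GCATGCGC, the core of the NRF1 motif, in 8.70% against 5.88%. Large and small subunit promoters carried CCGGAAG in 40.5% and 44.4% of cases and AAGATGG in 33.3% and 33.3%.

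Of the 14 promoters of genes that fell under sh4, 5 held CCGGAAG and 2 held AAGATGG, against 24 and 21 of the 55 promoters of genes not called. In this window CCGGAAG and AAGATGG were thus more frequent in the set than among genes tested. The genes called held them in 35.7% and 14.3% of promoters, against 43.6% and 38.2% for genes not called. This difference was not tested. The 5 motifs were chosen with results known, and a match describes letters in the reference sequence and not binding.

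Under sh8 alone, 0 of the 78 genes passed in either direction in limma, beside 1.54% of all genes called lower and 1.38% called higher. At an unadjusted p under 0.05, 16 were lower and 0 higher, limma-voom called 0, and the smallest adjusted p was 0.0718. The median log2 fold change was -0.28, with 69 of 78 negative, against -0.01 and 51.2% over all genes. Both sh8 libraries lay below all 3 control libraries in 31 genes, beside 17.9% of all genes tested, and the corresponding count for sh4 was 29, beside 25.6%.

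Without the first lacZ library, 13 genes fell under sh8, beside 5.75% of all genes called lower in that fit, and all 78 fold changes were negative with a median of -0.38. That library was the lowest control in 71 of the 78 genes, so leaving it out lowers their fold changes by construction. The 13 were led by MRPS12, a protein of the decoding centre. Its normalized counts were 84.6, 151 and 147 in lacZ, 84.7 and 90.3 under sh4, and 69.9 and 66.4 under sh8. The sh8 libraries were the lowest, and the first lacZ library lay with the sh4 libraries. Its fold change under sh8 was -0.85 (adjusted p = 0.140) with all control libraries and -1.12 (adjusted p = 0.0129) without the first one. MRPS34 (-0.88, adjusted p = 0.00529), MRPS26 (-0.76, adjusted p = 0.0154) and MRPL12 (-0.76, adjusted p = 0.0137) were next by size in that fit.

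All 17 genes that fell under sh4 had negative fold changes under sh8, from -0.65 to -0.17, and none passed there. Both comparisons share the lacZ libraries, so the values are given side by side only. MRPS34 had -0.72 under sh4 and -0.65 under sh8, MRPS9 had -0.82 and -0.55, and MRPL2 had -0.73 and -0.56. MRPS5 had -0.48 and -0.17, the smallest of the 17 under sh8.

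**Figure D4:**
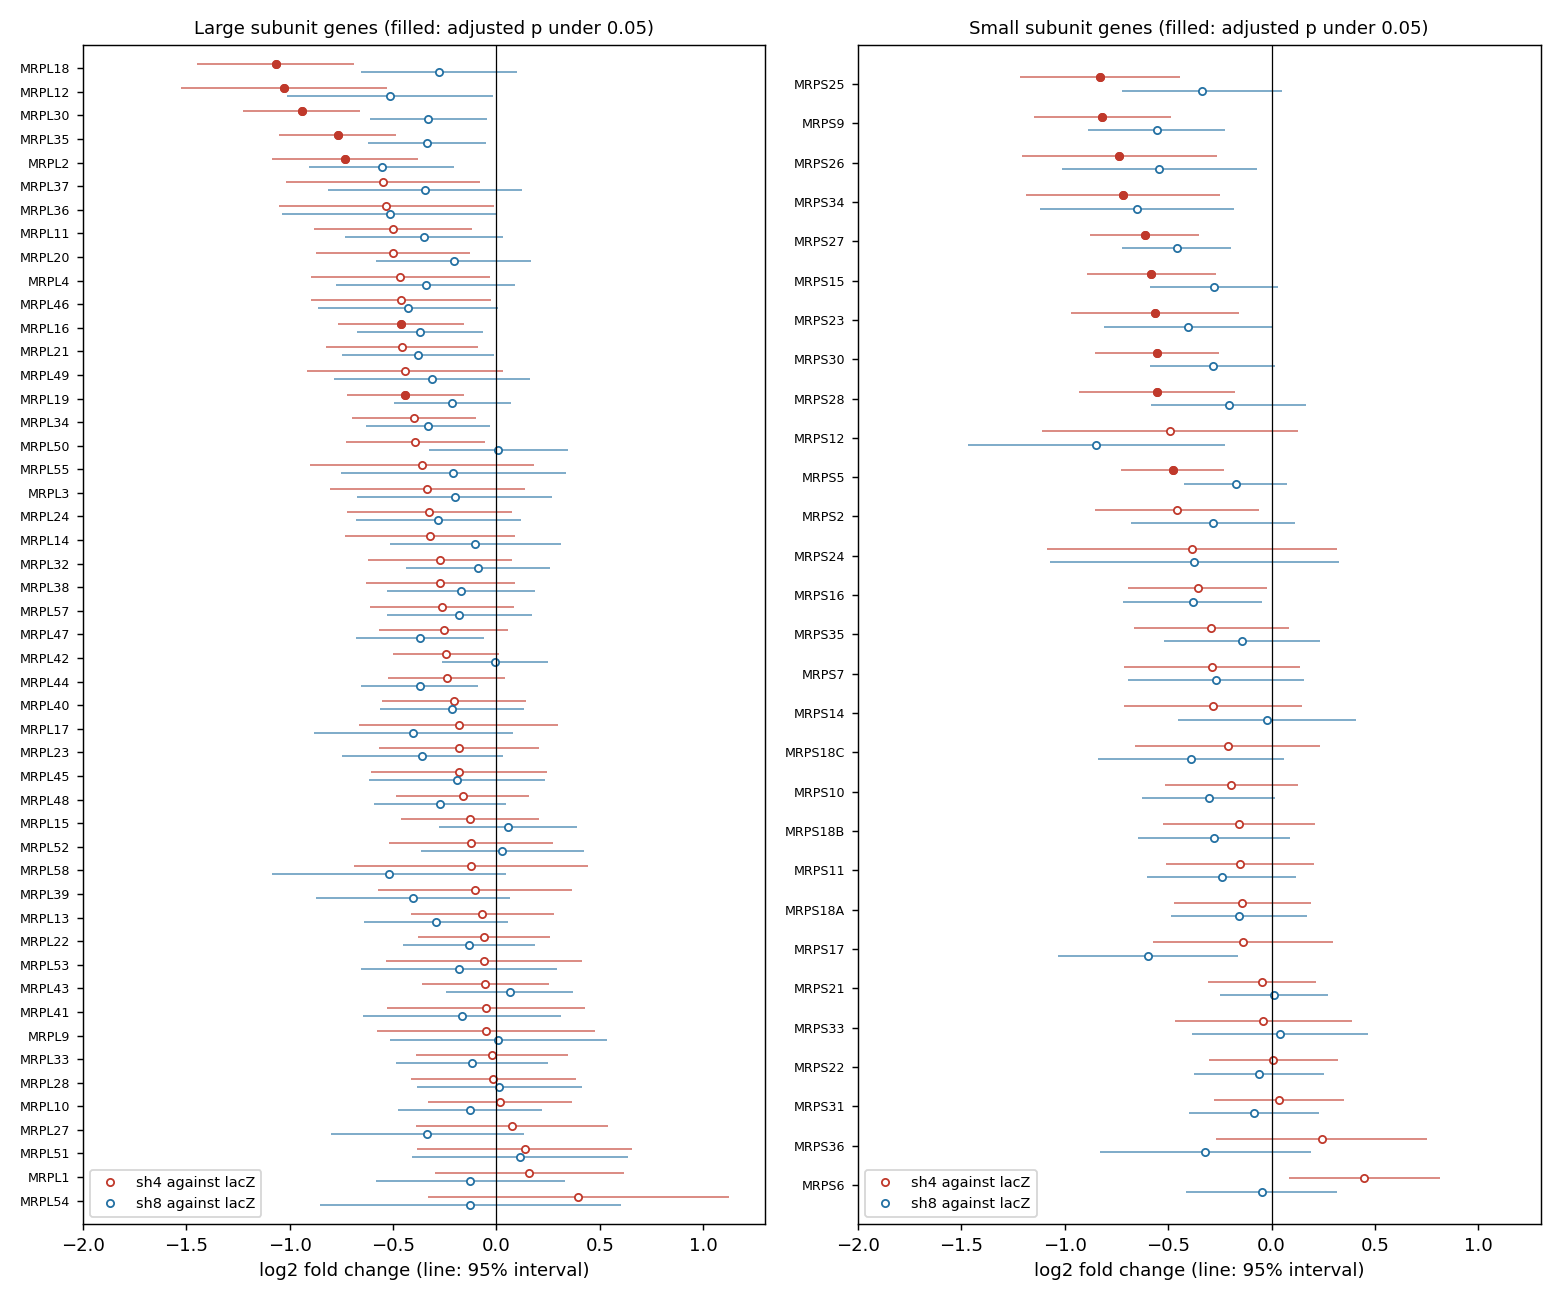
Log2 fold change of each of the 78 genes under sh4 (red) and sh8 (blue) against lacZ with its 95% interval from the 3-group fit, in order of the value under sh4, with filled points for an adjusted p under 0.05. The 17 filled points are all under sh4 and all negative, from -1.07 (MRPL18) to -0.44 (MRPL19).

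Tested directly against each other, which uses no lacZ mean, sh4 was lower than sh8 in 2 of the 78 genes and higher in 0, beside 3.33% and 3.67% of all genes. These were MRPL18 (-0.79, SE 0.19, adjusted p = 0.0327) and MRPL30 (-0.61, SE 0.14, adjusted p = 0.0286), which also had large falls against lacZ under sh4. Both lay lower in each sh4 library than in each sh8 library. At an unadjusted p under 0.05, 6 genes were lower and 2 higher, and the median difference over the set was -0.06, with 47 of 78 negative. The count was 0 without any single sh4 or sh8 library (beside 0.532% to 1.75% of all genes called lower), 1 without the third lacZ library (2.56%) and 4 without the first lacZ library (6.21%), which enters only through the shared spread.

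The median log2 fold change was -0.25 for the 49 MRPL genes and -0.33 for the 29 MRPS genes with both hairpins, -0.26 and -0.29 under sh4, and -0.21 and -0.28 under sh8. Without the first lacZ library these medians were -0.36 and -0.45, -0.36 and -0.47, and -0.38 and -0.38. Under sh4, 7 of 49 MRPL genes (14.3%) and 10 of 29 MRPS genes (34.5%) fell, beside 11.9% of all genes, so the MRPL share lay near that of all genes. Without that library 20 and 14 did, beside 17.2% of all genes. With MRPS30 and MRPS18A moved to the large subunit and MRPS36 left out, the counts were 8 of 51 and 9 of 26. No test of this difference was made, since the genes of a subunit are not replicates.

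Within each library, the mean log2 level of the MRPL genes minus that of the MRPS genes was -0.27, -0.18 and -0.18 in lacZ, -0.20 and -0.15 under sh4, and -0.15 and -0.15 under sh8. This difference carries the unequal transcript lengths of both sets, which are the same in each library, so that only its movement between libraries can be read. The first lacZ library was the lowest, and the first sh4 library lay within the control range. The group means were -0.21 ± 0.049 in lacZ (SD, n = 3) and -0.16 ± 0.029 over the knockdown libraries (n = 4), and the pooled SD within groups was 0.040. The mean log2 level of all 78 genes had a pooled SD of 0.16. A shift shared by both subunits in a library cancels in the difference but stays in this level. The smaller SD of the difference is thus expected from how it was computed.

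The 5 mitoribosomal proteins with other symbols all had negative fold changes against lacZ under each hairpin. DAP3, a GTP-binding protein of the small subunit, had normalized counts of 1371, 1637 and 1491 in lacZ, 1004 and 1233 under sh4, and 1315 and 1270 under sh8, and it fell under sh4 (-0.43, adjusted p = 0.0464). GADD45GIP1 (-0.61, adjusted p = 0.0774), CHCHD1 (-0.44, adjusted p = 0.174), AURKAIP1 (-0.40, adjusted p = 0.187) and PTCD3 (-0.14, adjusted p = 0.390) did not pass under sh4. None of the 5 passed in limma under sh8, where 1 had an unadjusted p under 0.05. DAP3 was thus 1 of 5 called under sh4, beside 11.9% of all genes called lower there and 1.54% under sh8. When the first lacZ library was left out, 3 of the 5 passed under sh4 and 1 under sh8, beside 17.2% and 5.75% of all genes.

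Of 27 mitoribosome assembly factors, 6 fell and 0 rose under sh4, and 2 fell under sh8, or 6 and 3 without the first lacZ library. For this and the lists below, the shares of all genes called lower were 11.9% under sh4 and 1.54% under sh8. Without the first lacZ library they were 17.2% and 5.75%. FASTKD2, an RNA-binding protein needed for the large ribosomal RNA, fell under both hairpins, with -0.72 for sh4 (adjusted p = 0.00537) and -0.73 for sh8 (adjusted p = 0.0227). GRSF1, a protein of mitochondrial RNA granules, was at -0.47 for sh4 (adjusted p = 0.0299) and -0.73 for sh8 (adjusted p = 0.0203). C1QBP (-0.82, adjusted p = 0.0200), MRM2, a methyltransferase of the large ribosomal RNA (-0.62, adjusted p = 0.0315), and MTERF3 (-0.59, adjusted p = 0.0331) fell under sh4.

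Of 18 mitochondrial translation factors, 7 fell under sh4 and 0 under sh8 (5 lower at an unadjusted p under 0.05), or 9 and 3 without the first lacZ library. LRPPRC, which stabilizes mitochondrial messenger RNAs, was at -0.80 under sh4 (adjusted p = 0.00199), the GTPase GUF1 at -0.68 (adjusted p = 0.00882), RMND1 at -0.61 (adjusted p = 0.00932) and the elongation factor TUFM at -0.57 (adjusted p = 0.0369). The median under sh4 was -0.36 for this list and -0.24 for the assembly factors, or -0.38 and -0.33 without the first lacZ library. Among 10 genes of mitochondrial DNA maintenance and transcription, the helicase TWNK was the 1 that fell under sh4 (-0.91, adjusted p = 0.00877), and 4 fell without the first lacZ library.

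Transcripts of the mitochondrial genome itself had other values than the nuclear genes. Of the 15 measured, 0 passed in limma under either hairpin (3 lower and 1 higher at an unadjusted p under 0.05 under sh4, 0 and 2 under sh8). Their median was -0.08 under sh4 and 0.30 under sh8, with 12 of 15 positive under sh8. Without the first lacZ library 2 fell under sh4 and 0 passed under sh8, with medians of -0.10 and 0.26. MT-RNR1 and MT-RNR2, the ribosomal RNAs of the mitochondrial ribosome, were at -0.62 and -0.39 under sh4 and at 0.45 and 0.61 under sh8, none past the threshold. Both are ribosomal RNAs, and the libraries were depleted of ribosomal RNA before sequencing.

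Of 10 transcriptional regulators of mitochondrial genes, 6 fell under sh4 and 0 under sh8 (1 lower at an unadjusted p under 0.05), or 8 and 1 without the first lacZ library. PPARGC1B, a coactivator of mitochondrial biogenesis, had normalized counts of 574, 656 and 632 in lacZ, 236 and 222 under sh4, and 634 and 553 under sh8. Only the sh4 libraries lay apart, and its sh4 fold change was -1.43 (adjusted p = 0.000200). MYC was at -1.51 for sh4 (adjusted p = 0.000287) and -0.15 for sh8 (adjusted p = 0.663), and the nuclear receptor ESRRA was at -1.03 (adjusted p = 0.00300) and -0.17 (adjusted p = 0.651). PPARGC1A was at -0.94 for sh4 (adjusted p = 0.0382) and -1.04 for sh8 (adjusted p = 0.0825). GABPA, the DNA-binding subunit of the ETS factor named above, was at 0.04 under both hairpins (adjusted p = 0.866 and 0.902), and YY1 was at -0.37 under sh4 (adjusted p = 0.0349).

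As a second set of ribosomal genes, 83 cytosolic ribosomal protein genes were counted in the same fits. Under sh4 34 of 83 fell with a median of -0.41, and under sh8 0 of 83 passed in limma (4 lower at an unadjusted p under 0.05) with a median of -0.14. Leaving out the first lacZ library gave counts of 65 and 7, with medians of -0.58 and -0.27. The mitoribosomal set had medians of -0.27 and -0.28 in these comparisons, or -0.38 and -0.38 without that library. Its sh4 median was -0.42 without the second sh4 library and -0.18 without the first, and scaling to library totals gave -0.17 under sh4 and -0.26 under sh8. The difference between both sets was not tested.

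**Figure D5:**
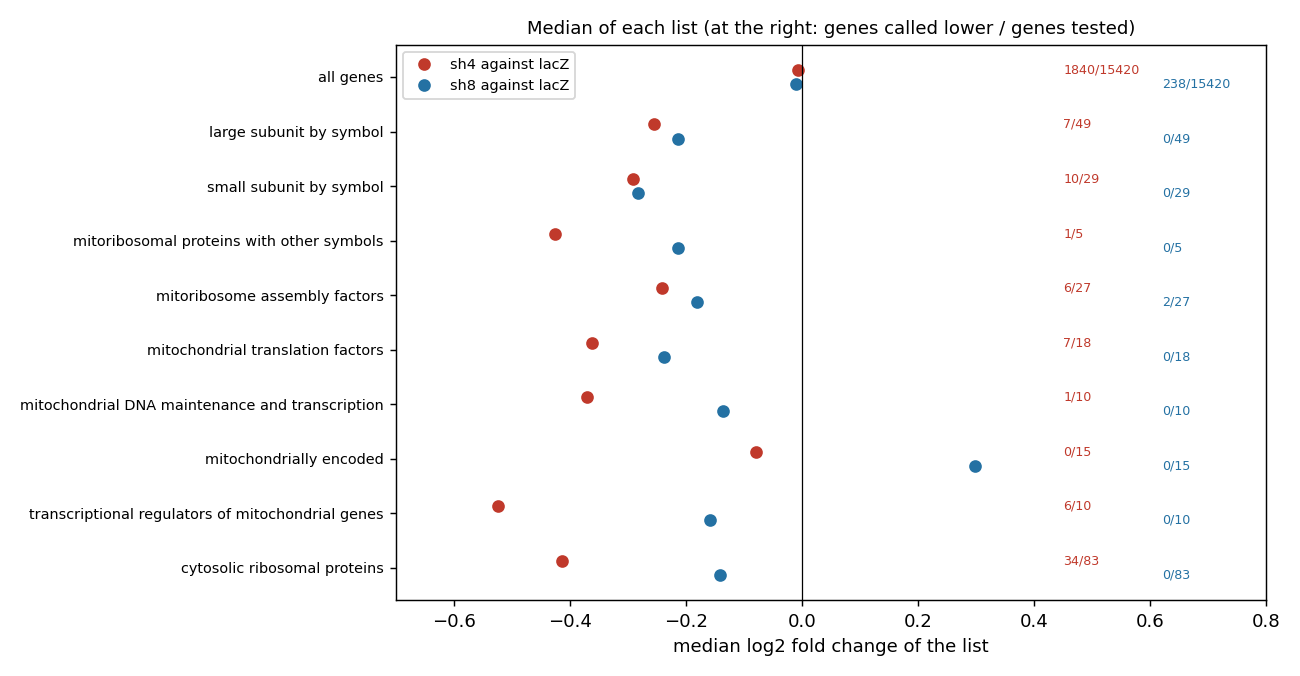
Median log2 fold change under sh4 (red) and sh8 (blue) against lacZ for all genes tested, both subunits and 7 related gene lists, with the number of genes called lower of those tested at the right. All lists except the mitochondrially encoded genes have negative medians under both hairpins, and calls under sh8 occur among the assembly factors only (2 of 27) beside all genes.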

How the data were processed

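Total RNA of 7 libraries of doxycycline-treated 501Mel cells was depleted of ribosomal RNA and made into stranded libraries. Per the study's methods, reads were trimmed with Cutadapt, aligned to hg38 with STAR and quantified with Salmon. Versions and the annotation release are not given in the sources used here, nor is the strand setting of the counting.

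Normalized counts were deposited in 1 table with decimal commas, each count having been divided by the size factor of its library. It held 21305 genes, 4633 of them without a symbol. Reads, and with them the depth, were recovered from the step of 1 read in each library, to which 100% of values fitted within 0.01 read. The unit was declared as other than counts, so log values of the deposited normalized counts were tested and a count model was not the main test. Such scaling would hide a change shared by most transcripts. Of the columns, 0 belonged to other samples.

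Genes with a mean of at least 10 (15420) were tested with limma 3.58.1 (R 4.3.3). The scale was log2(normalized count + 1), with a variance trend and Benjamini-Hochberg adjustment over all of them. It understates changes of low genes. Both hairpins were pooled in a 2-level fit, and single hairpins came from a 3-group fit with a shared spread. The fits were tried on simulated counts with the same noise setting for every gene and no control library shifted. That trial therefore does not cover a shift like that of the first lacZ library. The members, lists and motifs were chosen with earlier results of these data known. Genes are named where called (at most 12 a direction), at the ends of the per kb order, for a set role, or, from other lists, where called (at most 4 a list). Gene lengths, GC and coordinates came from GENCODE release 44, where 21281 identifiers (99.9%) were found, and promoters from RefSeq. Alternatives covered pseudocount, filter, scaling, variance trend, GC and length, limma-voom on recovered reads, the replicate block, the groups fitted together and the omission of each library.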

Additional observations from a re-analysis of the deposited data

Results flagged for a closer look

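In a group of 4 knockdown libraries, a gene was listed here when the gap of its most extreme library to the nearest other exceeded the 95% critical value of Dixon's test. This held for 3 of 79 genes examined, where chance gives about 1 in 20. For MRPL10 the first sh8 library lay low (gap over range 0.926), for MRPL58 the second sh4 library lay high (0.863), and for MRPS34 the second sh8 library lay high (0.916).

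Several genes differed between sh4 and sh8 in the direct test of the difference (limma, adjusted p under 0.05); the genes named here were lower under sh4. Among the mitoribosomal genes these were MRPL18 (-0.79) and MRPL30 (-0.61), each lower in both sh4 libraries than in both sh8 libraries. Among the regulators of mitochondrial genes and the genes of mitochondrial DNA maintenance they were PPARGC1B (-1.37), MYC (-1.36), ESRRA (-0.86) and TWNK (-0.85). Of the other lists, 6 of 7 melanocytic markers and 4 of 83 cytosolic ribosomal protein genes were also called lower under sh4 in this test, beside 3.33% of all genes.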

How the results depend on the processing

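No single gene named as called changed sign in any alternative. Without the variance trend, the genes called lower numbered 0 for both hairpins, 10 under sh4, 0 under sh8 and 0 for sh4 against sh8. The shares of all genes called lower there were 0.292%, 7.89%, 0.188% and 1.26%. Taking the mean of both hairpins from the 3-group fit gave 14, while the share of all genes called lower rose from 2.06% to 8.77%. Scaling to library totals gave 1 gene lower under sh8 and 1 higher under sh4, beside 1.71% and 14.1% of all genes. Scaling to upper quartiles gave 1 higher under sh4 (11.6%), and removing GC and length trends left 1 lower for sh4 against sh8 (3.73%). The large minus small median under sh8 (0.07) was 0.023 with quantile normalization and 0.022 with GC and length trends removed. Same-numbered libraries had correlations of -0.08 to 0.34 over all genes and of 0.06 to 0.35, all positive, over the mitoribosomal genes. The libraries of a hairpin mirror each other around their mean, so these correlations cannot decide whether the replicate numbers pair the libraries. With the replicate block, 0 genes were lower for both hairpins, 16 under sh4, 0 under sh8 and 3 for sh4 against sh8.

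Leaving out 1 library gave 0 to 8 genes lower for both hairpins, 5 to 34 under sh4, 0 to 13 under sh8 and 0 to 4 for sh4 against sh8. Medians then ranged from -0.37 to -0.20, from -0.42 to -0.18, from -0.38 to -0.18 and from -0.15 to 0.06. The large minus small median ranged from 0.0074 to 0.094 for both hairpins, from 0.030 to 0.14 under sh4, from -0.046 to 0.11 under sh8 and from -0.0070 to 0.038 for sh4 against sh8. Where a hairpin was left with 1 library, that library was assumed to vary like the other groups. With 2 libraries a hairpin, the number of libraries limits precision.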
